A study of Mus musculus with 8 samples.

Results

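Striated muscle genes were followed on liver arrays of 2 mouse strains. The genes were 39 of the 34778 genes and unnamed features of the array: genes of the sarcomere, of its calcium handling and of its energy supply, with Myom3 and Cmya5 among them as genes whose signal differed between the strains. They were chosen by name with earlier results of these same arrays known. The signal on each array, the detection and the difference between the strains therefore describe the members. SEs and calls that the fit across all genes gave for them are printed as descriptions, and nothing is read from them. The members were measured by 52 of the 55681 probes.

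The livers came from male mice of 6 weeks of age that received a diet with 45% fat, 4 of the obese, diabetes-susceptible strain NZO (NZO/HiBomDife) and 4 of the lean strain B6 (C57BL/6). Both strains shared sex, age and diet, so each comparison is between strains on 1 diet. RNA of each mouse was hybridised to 1 Agilent array with 1 dye, and arrays are called by strain and mouse number: NZO 003, NZO 007, NZO 009 and NZO 011, and B6 009, B6 010, B6 011 and B6 015. A level is the log2 of the processed signal minus the 75th percentile of its array, so a level of 0 lies at that percentile, and levels of different probes are not set against each other. A probe counted as measured where Feature Extraction, the program that reads the scan, marked it well above background. The lowest level so marked on an array was between -4.63 and -3.95. In whole liver, fewer cells of a type and less RNA per cell cannot be told apart.

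The sarcomere is the contractile unit of skeletal and cardiac muscle. Myosin filaments and actin filaments slide past each other, the actin filaments are held at the Z disc, the myosin filaments at the M band, and titin and nebulin run along them. Fast and slow fibres use different forms of most of these proteins, and contraction starts with calcium release from the sarcoplasmic reticulum and is paid for by creatine kinase, glycogen and myoglobin-bound oxygen. Hepatocytes have no sarcomere.

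The tissue label was checked first. Albumin (Alb), transthyretin (Ttr), Apoa1, Cps1 and Tat, markers of hepatocytes, were well above background on all 8 arrays, and their summed signal (75th percentile = 1) was 3921, 3868, 3856 and 3793 on NZO 003, 007, 009 and 011 and 3000.2, 3765, 3201 and 3646 on B6 009, 010, 011 and 015. In this sum, of which Alb was the largest part, NZO 007 lay within the other NZO arrays, and B6 010 was the highest B6 array. By gene, NZO 007 was the lowest of the 8 arrays for Tat and Cps1, at -0.55 and -0.35 (log2) from the median of the other NZO arrays. B6 010 was the highest of the 8 for Cps1, 0.58 above the median of the other B6 arrays.

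The members fell into 2 patterns, which the selection had named. A gene followed the arrays where NZO 007 was at least 1 (log2) above the median of the other 3 NZO arrays and B6 010 at least 1 above the median of the other 3 B6 arrays. A gene followed strain where all 4 arrays of one strain were above all 4 of the other with a difference of at least 0.7. Of the 39 members, 34 were well above background on at least 1 array and 14 on all 8. Of these 34, 16 followed the arrays, 6 followed strain, all of them higher in NZO, and 12 showed neither pattern. The 16 were 6 with the normexp background correction and 7 with the deposited table. In these 2 settings 11 and 12 of all 25698 genes followed the arrays, against 120 in the main one. Over all 25698 genes measured on at least 1 array, 0.467% followed the arrays, 4.0% followed strain with a higher level in NZO and 4.89% with a lower one. The 5 members without a signal above background on any array were Myl2, Actn2, Myoz2, Myom1 and Sln.

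**Figure D1:**
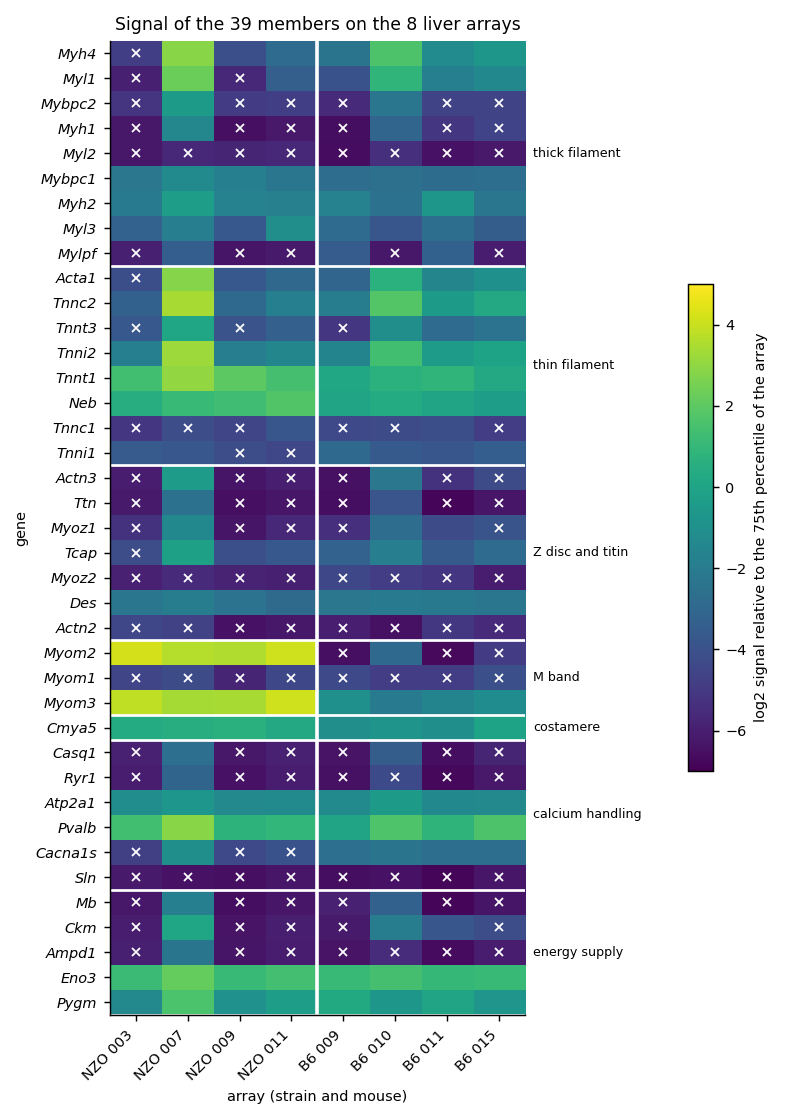
Level (log2 signal relative to the 75th percentile of the array, colour) of the 39 members (rows, by role) on the 8 arrays (columns); a cross marks a signal not well above background, and the white line divides NZO from B6. The columns of NZO 007 and B6 010 are bright for 16 members, and the NZO side is bright for Myom2 and Myom3.

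The probes that carry the 2 patterns are shown as the first 30 of their 60 bases, 5′ to 3′ as the files give them, with the position of the whole probe on mm9. Myom3, Myom2 and Cmya5 stand for the strain pattern and Ckm, Acta1 and Myh4 for the array pattern. The Ckm probe spans 2608 bases of the genome, so its 60 bases do not lie in 1 stretch. Exon and UTR were not assigned to the probes here, since the annotation used is of another build.
Myom3, chr4:135371377-135371436, plus strand: gggaggagttatcaaattctagctgtttgc
Myom2, chr8:15133322-15133381, plus strand: cacatttctggaaaccctttgtggagcctt
Cmya5, chr13:93853208-93853267, minus strand: tatgatgagaaagcacagagcttcgaggaa
Ckm, chr7:20002222-20004829, plus strand: cgatgcccgtggcatctggcacaacgacaa
Acta1, chr8:126416197-126416256, minus strand: acatcgacatcaggaaggacctgtacgcca
Myh4, chr11:67073834-67073893, plus strand: gaagaataatccatctttctgttgagaggt

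Of the 9 thick filament genes, 4 followed the arrays, all of them genes of fast fibres. Myh4, the myosin heavy chain of the fastest fibres, had levels of -4.77, 2.86, -4.06 and -2.81 on NZO 003, 007, 009 and 011 and of -2.37, 1.66, -1.21 and -0.66 on B6 009, 010, 011 and 015. NZO 007 was the highest array and B6 010 the second, and the strains overlapped. Myl1, an essential light chain of fast myosin, had levels of -5.93, 2.31, -5.63 and -3.39 in NZO and of -3.96, 0.84, -1.80 and -1.38 in B6, in the same order of arrays, with 2 NZO arrays at background. The excess over the median of the other 3 arrays of the strain was 6.92 (NZO 007) and 2.87 (B6 010) for Myh4 and 7.94 and 2.63 for Myl1. In linear terms, Myh4 was 121-fold higher on NZO 007 and 7.30-fold higher on B6 010, and Myl1 was at least 93.2-fold and 6.21-fold higher. For the bounds ("at least"), an array at background was given its floor, the dimmest probe above background there, or its own level where that was higher.

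The other 2 thick filament genes of this pattern were Myh1, a second fast heavy chain, and Mybpc2, the fast form of myosin-binding protein C. NZO 007 and B6 010 were the only arrays on which either was above background, Myh1 at least 6.81-fold and 2.88-fold higher and Mybpc2 at least 13.8-fold and 4.81-fold. Myh2, the heavy chain of the intermediate fast fibre, was measured on all 8 arrays with an excess of 1.42 on NZO 007 and of -0.83 on B6 010, where its level of -2.51 was the lowest of all. Myl3 and Myl2, light chains of slow and cardiac muscle, did not follow the arrays, and Myl2 was at background throughout. The levels of Myl3 were -3.22, -1.87, -3.68 and -1.06 in NZO and between -3.78 and -2.66 in B6, and the strains overlapped.

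Mylpf, the fast regulatory light chain, showed a different pattern. Its levels were -3.40 on NZO 007, -3.49 on B6 009 and -3.27 on B6 011, and it was at background on the other 5 arrays, with levels of -6.34 to -5.95. These 3 arrays were scanned on one day and the other 5 on another. Pygm, the muscle glycogen phosphorylase, was also higher on these 3 arrays (1.58, 0.29 and 0.03) than on the other 5 (-1.33 to -0.32). All arrays of one scan day were apart from those of the other, by at least 0.7 between the means, in these 2 of 34 members and in 6.51% of all genes measured on at least 1 array, a pattern that was looked for after the values had been seen.

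Of the 8 thin filament genes, 4 followed the arrays: the actin Acta1 and the troponins of fast fibres. Acta1, the skeletal muscle actin, had levels of -4.13, 2.81, -3.70 and -2.94 in NZO and -3.09, 0.66, -1.56 and -0.96 in B6. Tnnc2, the calcium sensor of fast fibres, had levels of -3.28, 3.42, -2.89 and -1.82 in NZO and -1.94, 1.78, -0.44 and 0.22 in B6, and Tnni2, the inhibitory troponin of fast fibres, had levels of -1.80, 3.26, -1.87 and -1.51 and of -1.57, 1.39, -0.35 and -0.04. For all 3 genes NZO 007 was highest and B6 010 second, and both were above every other array of either strain. Acta1 was 91.1-fold higher on NZO 007 and 4.67-fold higher on B6 010 than the median of the other arrays of the strain, Tnnc2 79.5-fold and 4.65-fold, and Tnni2 33.4-fold and 3.34-fold. Tnnt3, the troponin that ties the complex of fast fibres to tropomyosin, was at least 13.6-fold and 3.35-fold higher, and its second probe followed the same arrays. The slow forms of the calcium sensor and the inhibitory subunit, Tnnc1 and Tnni1, were close to background, with an excess of 0.34 and 0.42 on NZO 007 and of 0.08 and -0.20 on B6 010.

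At the Z disc, Actn3, the fast-fibre actinin that cross-links actin, was above background on NZO 007 (-0.34) and B6 010 (-2.24) and had levels of -6.46 to -4.20 elsewhere. Myoz1, which binds calcineurin at the fast Z disc, was at least 7.03-fold and 2.80-fold higher on NZO 007 and B6 010, and Tcap, which caps titin, was 15.2-fold and 2.54-fold higher. Ttn, titin itself, was above background on the same 2 arrays only, at -2.53 and -3.84, by the only one of its 4 probes that was above background on any array. Of the other 3 probes, 1 had an excess of over 1 on both arrays and 2 did not, among them the one with the highest mean level. Des, the intermediate filament of all muscle types, which hepatic stellate cells also make, was measured on all 8 arrays and lay between -2.86 and -1.94. NZO 007 was its highest array and B6 010 the second, with an excess of 0.50 and 0.19, under the limit of the pattern.

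Of the 6 genes of calcium handling 2 followed the arrays, as did 2 of the 5 of energy supply, and none followed strain. Casq1, the calcium store of the fast reticulum, was above background on NZO 007 (-2.63) and B6 010 (-3.45) only, and Ryr1, the release channel, on NZO 007 only (-3.14), with -4.29 on B6 010. Ckm, the muscle creatine kinase, had levels of -6.04, 0.10, -6.34 and -6.02 in NZO and -6.14, -1.90, -3.80 and -4.16 in B6, and was at least 20.1-fold higher on NZO 007. Mb, myoglobin, was above background on NZO 007 (-1.81) and B6 010 (-3.26) only. Cacna1s, the voltage sensor, was at least 9.25-fold higher on NZO 007 than the median of the other NZO arrays. On B6 010 it was 0.25 (log2) above the median of the other B6 arrays. Ampd1, the muscle AMP deaminase, was above background on NZO 007 only, at -2.33. Atp2a1, the calcium pump of fast fibres, had levels of -1.36 to -0.71 in NZO and of -1.39 to -0.46 in B6, with B6 010 the highest of the 8 arrays. Eno3, an enolase that liver also makes, had levels of 1.09 to 2.18 in NZO and of 1.00 to 1.45 in B6, with NZO 007 highest.

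The 2 probes of Pvalb, the calcium buffer of fast fibres, disagreed. The brighter one was above background on all 8 arrays and ranged from 0.75 to 2.86 in NZO and from -0.00 to 1.68 in B6, with an excess of 1.93 on NZO 007 and 0.87 on B6 010. The dimmer one was at -0.32 on NZO 007 and -1.77 on B6 010, at -6.57 to -5.95 on the other NZO arrays and at -6.65 to -3.83 on the other B6 arrays. By the dimmer probe Pvalb followed the arrays, and by the brighter one, which stands for the gene in the counts, it did not.

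**Figure D2:**
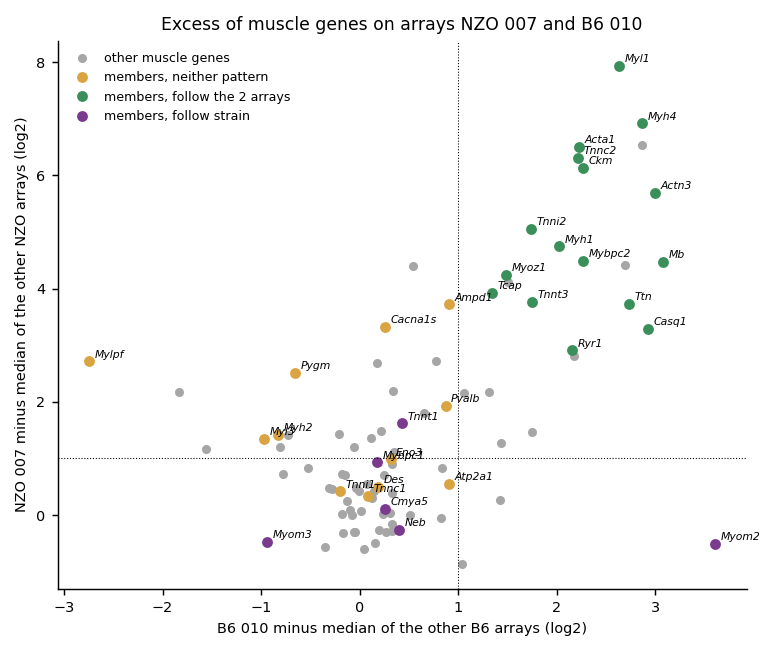
Excess of each gene on NZO 007 over the median of the other 3 NZO arrays (vertical, log2) against its excess on B6 010 over the other 3 B6 arrays (horizontal, log2), for the 34 members and 58 other muscle genes above background on at least 1 array; dotted lines mark 1. The 16 members of the array pattern fill the upper right, Myom2 lies alone at 3.61 on B6 010 and -0.51 on NZO 007, and Mylpf lies at -2.75 on B6 010. Signals at background are plotted as measured.

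The 16 members of the array pattern were Myh1, Myh4, Myl1, Mybpc2, Acta1, Tnnt3, Tnni2, Tnnc2, Actn3, Myoz1, Tcap, Ttn, Casq1, Ryr1, Ckm and Mb. Each had its highest level on NZO 007 and its second highest on B6 010. NZO 007 was above B6 010 by 0.81 to 2.14, with a median of 1.54. Against the bounds, the 16 members were at least 2.13-fold (Ryr1) to 121-fold (Myh4) higher on NZO 007, and the 15 above background on B6 010 at least 1.69-fold (Ttn) to 7.30-fold (Myh4) higher there. On the other 6 arrays the median level of the 16 members was -4.00 on B6 011 and -4.02 on B6 015, against -5.22 on NZO 011, -5.44 on B6 009, -5.57 on NZO 003 and -5.92 on NZO 009. The number of these members above background was 16 on NZO 007, 15 on B6 010, 9 on B6 011, 7 on B6 015, 7 on NZO 011, 6 on B6 009, 5 on NZO 009 and 2 on NZO 003.

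The members were also counted by fibre type, as a description, since the selection had used the signal of NZO 007 and B6 010. Of the 16 members of the array pattern, 9 were above background on at least 1 of the 6 other arrays. The rest were counted only through the arrays where they were high, and nothing is read from the counts by fibre type. Of the members above background on at least 1 array, 10 of 14 of fast fibres followed the arrays, 0 of 5 of slow fibres and 6 of 15 that both fibre types use, beside 0.467% of all genes so measured. The M band genes, Myom2 and Myom3 among them, were counted with those that both fibre types use, although each is known mainly from some fibre types. The summed signal of the 14 fast members (75th percentile = 1) was 3.88, 44.7, 3.04 and 3.70 in NZO and 2.77, 16.4, 5.42 and 7.32 in B6. The brighter Pvalb probe was the largest part of it, averaged over the arrays, which ranks probes by brightness and not genes by abundance. The summed signal of the 7 slow members was 3.01, 9.26, 4.46 and 3.58 in NZO and 1.69, 2.05, 2.25 and 1.60 in B6, most of it Tnnt1. The fast sum was 12.1 times the median of the other NZO arrays on NZO 007 and 3.02 times that of the other B6 arrays on B6 010, and the slow sum 2.59 and 1.21 times. Myom2 was in neither sum, and these ratios hold without it. Its own signal was 18.8, 12.5, 11.8 and 17.8 in NZO and at most 0.13 in B6.

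**Figure D3:**
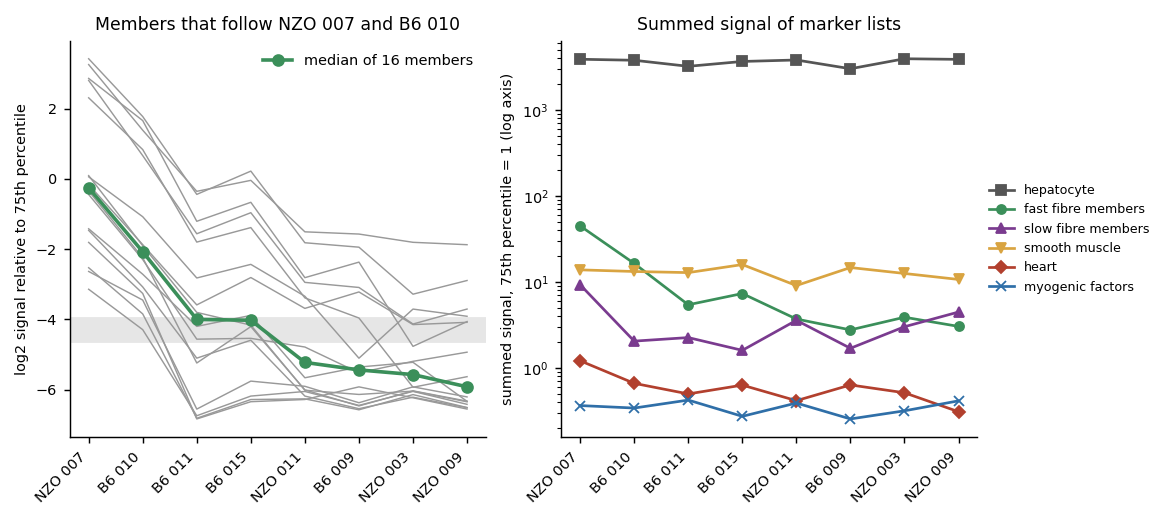
Left, levels (log2 relative to the 75th percentile) of the 16 members of the array pattern (grey) and their median (green) on the arrays ordered by that median; the band covers the lowest levels above background. Right, summed signal of 6 marker lists on the same arrays (log axis, 75th percentile of the array = 1). The fast members fall from 44.7 on NZO 007 to 2.77 on B6 009, and the hepatocyte markers stay between 3000.2 and 3921.

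Markers of other cell types were compared on the same arrays. For heart (Myh6, Tnni3, Tnnt2, Nppa, Myl7, Ryr2), 5 of 6 genes were above background on at least 1 array, Ryr2 on none, and the summed signal was 1.21 on NZO 007 against 0.310 to 0.514 on the other NZO arrays, and 0.662 on B6 010 against 0.499 to 0.634 on the other B6 arrays. The probe of Myh6 was the brightest, and for each list below "led by" names the gene of its brightest probe. For smooth muscle, 6 of 7 genes were above background, Lmod1 on none, and the sum, led by Tagln, was 9.06 to 13.8 in NZO, highest on NZO 007, and 12.8 to 15.9 in B6. For mesothelium, 3 of 5 genes were above background, Lrrn4 and Upk1b on none, with sums of 0.811 to 1.25 led by Msln. For tendon and fascia, 2 of 5 genes were above background, led by Fmod, and Tnmd, Thbs4 and Comp on none, with sums of 0.449 to 0.658. The marker lists of heart, smooth muscle, mesothelium and tendon held no gene that followed the arrays.

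For adipocytes, 2 of 6 genes were above background, led by Fabp4, with Adipoq, Plin1, Lep and Ucp1 on none, and the sum was 3.16 to 4.89. For exocrine pancreas, 2 of 6 genes were above background, led by Ctrb1, with Cela3b, Pnlip, Cpa1 and Prss2 on none, and the sum was 1.29 to 2.29, highest on NZO 007. Red blood cell genes were led by Hba-a1 and summed to 293 to 470 in NZO and 155 to 208 in B6. Leukocyte genes were led by Csf1r and summed to 38.8 to 61.2 in NZO, highest on NZO 007, and 48.7 to 79.3 in B6. The sum on NZO 007 was 1.43 times the median of the other NZO arrays for leukocytes, 1.33 times for exocrine pancreas, 1.29 times for smooth muscle and 2.91 times for heart. On B6 010 the ratios to the other B6 arrays were 0.806, 1.15, 0.899 and 1.05. The leukocyte gene Cd3e had an excess of 1.20 on NZO 007 and of -0.62 on B6 010. Itgax, at background on NZO 003 and NZO 011, was at least 2.89-fold higher on NZO 007 and had an excess of 0.01 on B6 010. The part of these cell types in the signal of NZO 007 was not tested. Of 7 factors that drive muscle formation, Myod1, Myog and Myf5 were above background on no array, and the sum, led by Pax7, was 0.365 on NZO 007 and 0.342 on B6 010, within the range of the other arrays, 0.255 to 0.423. The other 4 factors were above background on some arrays. Among them, Myf6 was so on NZO 007, B6 009 and B6 011, the arrays of the second scan day. Its highest level, -2.76, was on NZO 007, and on B6 010 it was at background, at -4.71. The sum over the members other than Des, Eno3, Mb, Myom3 and Cmya5, measured or not, was 27.8, 81.6, 22.6 and 29.6 in NZO and 7.20, 23.0, 10.5 and 11.4 in B6, led by Myom2. Without Myom2, left out after its values were seen, it was 9.02, 69.1, 10.8 and 11.8 in NZO and 7.19, 22.9, 10.4 and 11.4 in B6, led by Tnnt1, and the strains overlapped. The part of muscle tissue in the array pattern was not tested. Of the marker lists, red blood cells moved with strain, with 3 of 4 genes called higher in NZO by limma (5.26% of all tested genes) and 2 after adjustment. Called lower (6.57% of all) were 1 of 5 leukocyte genes, Itgax, and 1 of 2 tested mesothelium genes, Wt1. Both were above background on 2 NZO and 4 B6 arrays and so entered the test only through B6, where they were higher, and nothing is read from their calls. Of the other cell type lists no tested gene was called. The part of blood and of the other cell types in the strain pattern was not tested.

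Of a list of 76 other muscle genes, 58 were above background on at least 1 array and 8 of these followed the same arrays: Myh8, Ckmt2, Myot, Pgam2, Trdn, Cox8b, Flnc and Fabp3. Ckmt2, the mitochondrial creatine kinase of muscle, was above background on NZO 007 and B6 010 only, at least 7.17-fold and 4.04-fold higher. Myot, a Z disc protein, was above background on NZO 007 only, at least 2.12-fold higher, so its place in the pattern rests in B6 on signals at background. Pgam2, a glycolytic enzyme of muscle, had levels of -0.32 on NZO 007 and -2.23 on B6 010 and of -4.58 to -3.21 on the other 6 arrays. Trdn, which anchors the calcium store, was at least 1.40-fold and 1.62-fold higher. Cox8b, a muscle form of a cytochrome c oxidase subunit, had an excess of 2.17 and 1.31, and Flnc, the muscle filamin, of 1.28 and 1.43. Fabp3, a fatty acid carrier named after its values were seen, had 2.16 and 1.06. Klhl41, a sarcomere assembly factor, and Jph2, which ties the reticulum to the surface membrane, showed the pattern without passing the background on any array. Tpm1, a tropomyosin of the thin filament that many cell types also make, did not follow the arrays by its brightest probe (0.09 and -0.10). Of its 5 probes, all above background on all 8 arrays, 2 did, with an excess of 4.53 and 4.39 on NZO 007 and of over 1 on B6 010. Myh8, the perinatal myosin, was counted by 1 of 4 probes, whose levels of 3.46 on NZO 007 and 2.30 on B6 010 ran parallel to Myh4, while its other 3 probes did not. Heavy chain genes are close copies of each other, so the assignment of that probe to Myh8 is uncertain.

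Outside all lists, the 10 genes with the largest smaller excess on the 2 arrays were Ppifos, Gm10839, Prom2, Pdzph1, Mrgpra3, Gm11559 and 4 unnamed features. Ppifos was above background on NZO 007 (-3.03) and B6 010 (-1.95) alone. Gm11559 was measured on all 8 arrays and had an excess of 2.21 and 1.99, and 2 unnamed features measured on all 8 had 2.20 and 2.40, and 3.05 and 2.18. In 7 of these 10 B6 010 was above NZO 007, against 0 of the 16 members of the array pattern. Among the 20 genes of the whole array with the largest smaller excess, 10 were members and 13 were members or other muscle genes. The selection had used the signal of these 2 arrays, and nothing is read from this count.

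Myom3, a protein of the M band in intermediate and slow fibres, followed strain. Its levels were 3.85, 3.38, 3.45 and 4.14 on NZO 003, 007, 009 and 011 and -0.98, -2.12, -1.57 and -1.18 on B6 009, 010, 011 and 015, all above background. The lowest NZO array lay 4.36 above the highest B6 array, without overlap. The difference was 5.17 ± 0.27 (SE, n = 4 and 4), or 35.9-fold, and it was 4.09 with the normexp background correction and 4.34 with the deposited table. The arrays with the strongest muscle signal were not the highest ones: NZO 007 was the lowest NZO array and B6 010 the lowest B6 array.

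Myom2, the M band protein of fast fibres and heart, showed the largest difference of the 39 members. Its levels in NZO were 4.23, 3.64, 3.56 and 4.15. In B6 it was above background on B6 010 only, at -2.91, with -6.52 on B6 009, -6.69 on B6 011 and -4.85 on B6 015. Against the bounds NZO was at least 269-fold higher. With 3 B6 arrays at background no exact difference was measured: the signals as given differed by 9.14 on the log2 scale, by 5.07 with normexp and by 5.90 with the deposited table. Within NZO, NZO 007 lay -0.51 from the median of the other 3 arrays, and within B6, B6 010 was at least 3.22-fold above the median of the other 3. Myom1, the M band protein of all striated muscle, was at background on all 8 arrays, with levels of -5.74 to -4.08.

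Cmya5 (myospryn), a large protein of the costamere and Z disc, was higher in NZO by its brighter probe. Its levels were 0.37, 0.48, 0.62 and 0.25 in NZO and -1.09, -0.78, -1.03 and -0.03 in B6, all above background. The strains did not overlap, and the gap between NZO 011 and B6 015 was 0.28. The difference was 1.16 ± 0.23 (SE), or 2.24-fold, and it was 0.77 with normexp and 0.78 with the deposited table. NZO 007 and B6 010 lay within 0.25 of the median of their strain. The second Cmya5 probe was not above background on any array. Its levels were -3.92 on NZO 007 and -4.55 on B6 010, and -6.57 to -6.05 on the other 6. Its excess was 2.15 on NZO 007 and 1.92 on B6 010, which is the array pattern, and the strains overlapped. Since none of these signals was above background, the second probe is counted in neither pattern.

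Neb (nebulin), which runs along the actin filament, had levels of 0.49, 1.08, 1.34 and 1.75 in NZO and -0.00, 0.40, 0.01 and -0.25 in B6 by its brightest probe. The difference was 1.13 ± 0.26 (SE), and NZO 003 lay just above B6 010. Its second probe gave 1.16 without overlap, and the third 1.00 with an overlap of the strains. The excess of Neb was -0.26 on NZO 007 and 0.40 on B6 010. Tnnt1, the tropomyosin-binding troponin of slow fibres, had levels of 1.35, 3.07, 1.99 and 1.45 in NZO and 0.21, 0.69, 0.83 and 0.26 in B6, a difference of 1.47 ± 0.37 (SE), and its second probe differed by 1.04. NZO 007 was its highest array, 1.62 above the median of the other NZO arrays. Mybpc1, the slow form of myosin-binding protein C, had levels of -2.25, -1.32, -1.84 and -2.31 in NZO and -2.73, -2.55, -2.77 and -2.67 in B6. Its difference of 0.75 ± 0.21 (SE) was close to the limit of 0.7. The difference fell below that limit without NZO 007 (0.55), with normexp (0.36) and with the deposited table (0.25).

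**Figure D4:**
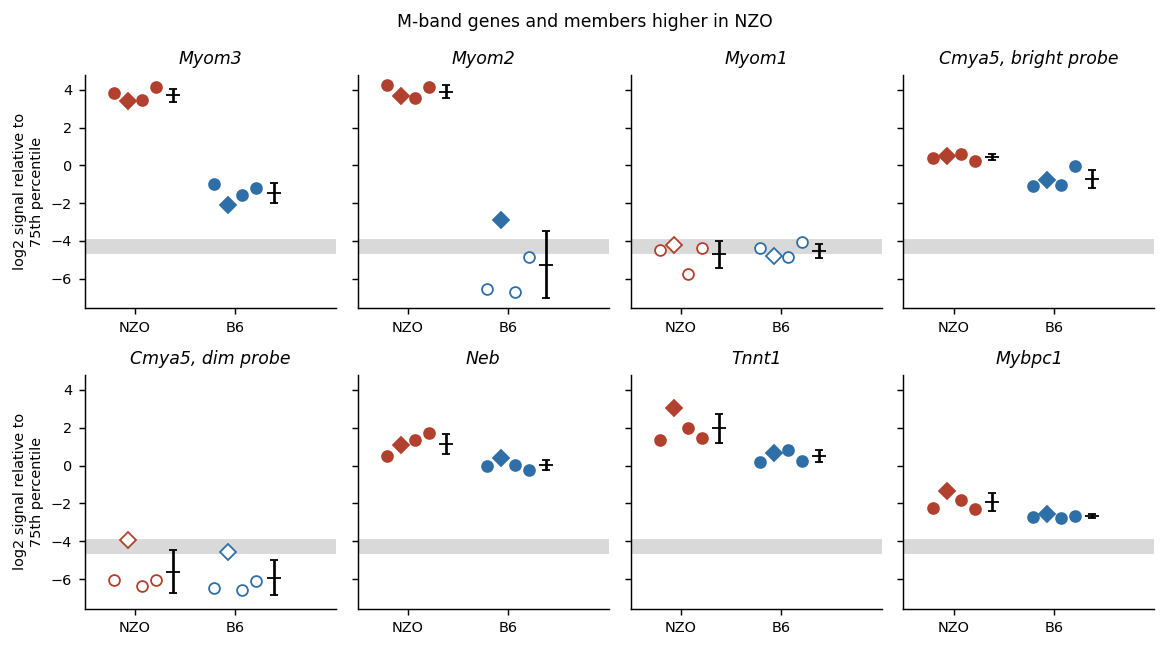
Level (log2 relative to the 75th percentile) on each NZO (red) and B6 (blue) array of the 3 M-band genes, both Cmya5 probes, Neb, Tnnt1 and Mybpc1; diamonds mark NZO 007 and B6 010, open symbols signals not above background, bars the mean and SD of 4 arrays, and the grey band the lowest levels above background. Myom3 lies at 3.38 to 4.14 in NZO and -2.12 to -0.98 in B6, and Myom2 leaves the background in B6 on B6 010 only.

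Only one slide held both strains, with NZO 003, B6 010 and B6 015. Within that slide NZO minus B6 was 5.50 for Myom3, 0.77 for Cmya5, 0.88 for Tnnt1, 0.42 for Neb and 0.36 for Mybpc1. Within the first scan day (3 NZO and 2 B6 arrays) the differences were 5.46, 0.82, 1.13, 1.12 and 0.48 in the same order. Within the second (1 NZO and 2 B6 arrays) they were 4.65, 1.54, 2.55, 1.07 and 1.43. The 1 NZO array there was NZO 007, so its excess enters these values. That excess was -0.47 for Myom3, 0.11 for Cmya5, 1.62 for Tnnt1, -0.26 for Neb and 0.93 for Mybpc1. These 5 genes were higher in NZO on the shared slide and within each scan day. The shared slide was scanned on the first day, so these comparisons are not separate from each other. Neb and Mybpc1 differed by less than the limit of 0.7 on the shared slide, and Mybpc1 also within the first scan day. For Myom2, at background on 3 B6 arrays, no difference within a batch is given, and its lowest NZO array lay 6.47 above its highest B6 array.

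Across all genes, limma called 1060 of 20137 genes (5.26%) higher and 1323 (6.57%) lower in NZO when a call needed a log2 difference of at least 0.7 and a p of at most 0.05 before adjustment, as in the methods, and 897 (4.45%) and 1005 (4.99%) after Benjamini-Hochberg adjustment. With the deposited table, not scaled between arrays, 468 were higher and 1139 lower. The 22 members that passed the filter, above background on all 4 arrays of a strain, held 6 called higher, the members of the strain pattern, and 0 called lower. The median difference of these 22 members was 0.02, against 0.03 over all genes. The rule had used this contrast, and nothing is read from the count. The spread within a strain differed between the patterns: the SD of Myh4 was 3.47 in NZO and 1.69 in B6, and that of Myom3 0.36 and 0.50. Without NZO 007 the thresholds were also met, with a lower level in NZO, by Acta1, Cacna1s, Myh4, Myl1, Tcap, Tnnc2, Tnni2 and Tnnt3 and by 7.32% of all genes, and without both NZO 007 and B6 010 by the same 8 members and 7.56% of all genes. All of the 8 except Tnnc2 and Tnni2 passed the filter through B6 alone, and nothing is read from this count either.

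Among the 76 other muscle genes, 45 were tested and 9 called, 3 higher and 6 lower, beside 5.26% and 6.57% of all genes, and 6 of these passed after adjustment over all genes with limma. The 9 were 1 with normexp and 3 with the deposited table. The 6 that passed after adjustment were 1 with normexp, 3 with the deposited table and 2 with the methods' t-test. They were 1 without B6 011, 2 without B6 009 or B6 015, and 3 without NZO 003 or B6 010. With slide as a random block, a correlation between arrays of 1 slide, 6 passed. With slide as a fixed term, only 1 NZO array shares a slide with B6, so no count is given. Tmod4, which caps the pointed end of actin filaments in fast muscle, was higher in NZO by 1.66 ± 0.28 (SE, adjusted p = 0.00554), with levels of -0.70 to 0.15 in NZO and -2.48 to -1.30 in B6. Lmod3, which nucleates actin, was higher by 0.76 ± 0.21 (adjusted p = 0.0424) and Xirp1, an actin-binding repeat protein, by 0.72 ± 0.18 (adjusted p = 0.0323). Neither overlapped between the strains. Ankrd2, a stretch-responsive ankyrin protein, was lower in NZO, where it was at background on all 4 arrays, and B6, above background on all 4, was at least 2.37-fold higher. It was tested only because of its B6 signal, so its call is not given as a result. Cox7a1, a muscle form of a cytochrome c oxidase subunit, fell by 0.72 ± 0.15 (adjusted p = 0.0141) and Tmem38a, a cation channel of the reticulum, by 0.72 ± 0.18 (adjusted p = 0.0307). The median difference of the 45 genes was -0.02.

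Position was not used to choose Myom3 and Cmya5, and their neighbours were tested. On GRCm38, Myom3 lies at chr4:135758800-135815571 and Cmya5 at chr13:93040713-93144724. Within 500 kb of Myom3, 22 genes were tested and 1 was called higher and 4 lower, of which 1 and 3 passed after adjustment. Over all tested genes the shares were 5.26% higher and 6.57% lower, and 4.45% and 4.99% after adjustment. The genes called here were above background on all 8 arrays. With slide as a random block, a correlation between arrays of 1 slide, 5 genes near Myom3 and Cmya5 together passed after adjustment. Of these, 1 was higher and 4 lower in NZO. With slide as a fixed term E2f2 did not pass, but that fit compares NZO 003 with B6 010 and B6 015 alone. Ncmap, a glycoprotein of myelin, was lower in NZO, with a difference of -2.64 ± 0.13 (adjusted p = 6.75e-06), as were Clic4, a chloride channel protein, with -1.91 ± 0.11 (adjusted p = 1.81e-05) and Tcea3, a transcription elongation factor, with -1.12 ± 0.17 (adjusted p = 0.00336). E2f2, a cell cycle factor, was higher by 1.04 ± 0.17 (adjusted p = 0.00484). The nearest tested gene before Myom3, Il22ra1, a receptor chain for interleukin 22 at 3.42 kb, differed by -0.94 ± 0.29 and failed the adjustment (adjusted p = 0.0653). The nearest after it, Srsf10 at 40.2 kb, differed by -0.01 (95% confidence interval -0.26 to 0.24).

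Within 500 kb of Cmya5, 0 of 7 tested genes were called by limma. Tent2, 1.13 kb from its start, differed by 0.13 (95% confidence interval -0.22 to 0.49), and Mtx3, 182 kb on the other side, by -0.33 (-0.76 to 0.09). At an unadjusted p under 0.05 alone there was 1, Bhmt, a methyltransferase of liver, with a difference of 0.43 (adjusted p = 0.0679). Around Myom2, at chr8:15057653-15133420 and added after its values were seen, 4 genes were tested. The only one called, Arhgef10, a guanine nucleotide exchange factor, was at background on all 4 NZO arrays (-4.31 to -3.66) and above it on all 4 B6 arrays (-3.42 to -3.02), through which alone it entered the test, and nothing is read from that call.

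**Figure D5:**
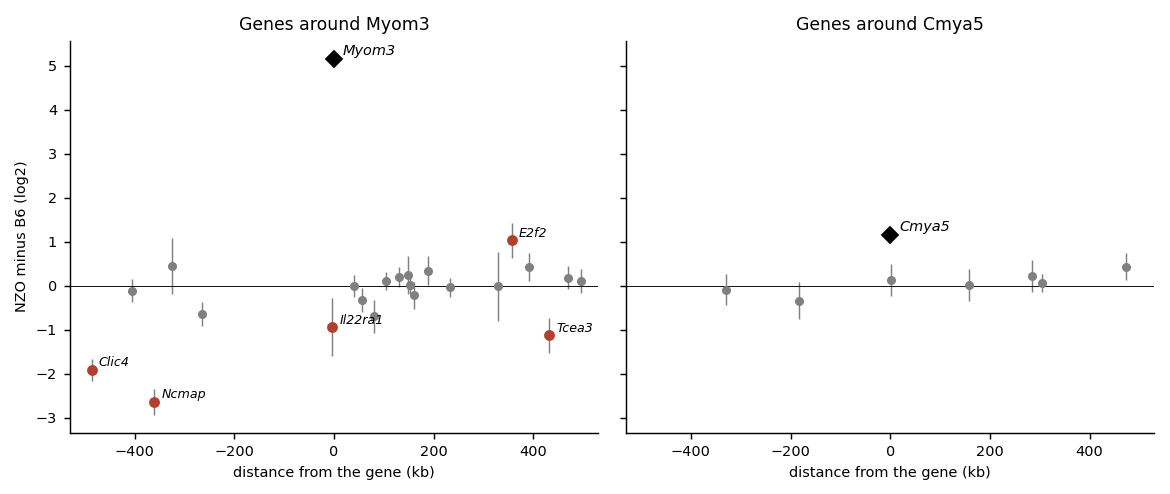
NZO minus B6 (log2, points, with 95% confidence intervals from limma) of the genes tested within 500 kb of Myom3 (left) and Cmya5 (right) against their distance from the gene (kb); black diamonds mark Myom3 at 5.17 and Cmya5 at 1.16, red points genes called at the thresholds. Around Myom3, Ncmap, Clic4, Il22ra1 and Tcea3 lie below 0 and E2f2 above, and around Cmya5 no gene is red.

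Promoter sequence was searched for motifs, in the 250 bases before each start in RefSeq on GRCm38.p6. Of the 39 members, 30 had an entry, with 35 windows in all. Motifs were searched on both strands: the E-box CAGCTG, bound by the MyoD family, the MCAT element CATTCC, the TATA element TATAAA, and the MEF2 and CArG elements, whose AT-rich letters can overlap the TATA element. CAGCTG lay in 17 of 35 member windows (48.6%) against 13.0% of all 32851 windows, CATTCC in 9 (25.7%) against 12.6%, TATAAA in 6 (17.1%) against 12.4%, MEF2 in 6 (17.1%) against 2.92% and CArG in 4 (11.4%) against 1.47%. By pattern, CAGCTG lay in 7 of 13 windows of the array pattern, 1 of 4 of the strain pattern and 9 of 18 of the other members. In the windows below, capitals mark matches. The Acta1 window held all motifs except MEF2, the Ckm window 1 E-box, the Myom3 window 1 MEF2 match and the Cmya5 window no match.
Acta1, chr8:123894776-123895025, minus strand: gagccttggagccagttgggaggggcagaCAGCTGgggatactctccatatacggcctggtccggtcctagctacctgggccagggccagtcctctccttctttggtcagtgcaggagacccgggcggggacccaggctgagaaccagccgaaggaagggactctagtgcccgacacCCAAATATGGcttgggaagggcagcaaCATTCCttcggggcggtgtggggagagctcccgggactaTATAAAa
Ckm, chr7:19410844-19411093, plus strand: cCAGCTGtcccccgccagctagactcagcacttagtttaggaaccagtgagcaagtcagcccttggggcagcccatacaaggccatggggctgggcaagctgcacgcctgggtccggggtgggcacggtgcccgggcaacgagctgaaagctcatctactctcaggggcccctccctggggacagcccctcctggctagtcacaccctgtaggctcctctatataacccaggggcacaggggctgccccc
Myom3, chr4:135759465-135759714, plus strand: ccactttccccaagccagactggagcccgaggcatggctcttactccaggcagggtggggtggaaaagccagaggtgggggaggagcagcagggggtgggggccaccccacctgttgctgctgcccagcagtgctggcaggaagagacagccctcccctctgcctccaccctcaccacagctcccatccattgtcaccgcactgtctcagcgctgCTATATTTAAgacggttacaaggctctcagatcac
Cmya5, chr13:93144725-93144974, minus strand: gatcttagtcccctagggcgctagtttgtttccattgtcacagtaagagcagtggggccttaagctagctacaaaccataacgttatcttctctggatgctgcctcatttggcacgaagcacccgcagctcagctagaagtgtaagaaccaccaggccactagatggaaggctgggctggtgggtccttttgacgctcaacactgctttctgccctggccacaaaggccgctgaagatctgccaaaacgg
A match is a run of letters in this window, and some windows of 1 gene overlap, as those of Tnni1 and 2 of the 3 of Mb do.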

How the data were processed

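Liver RNA of 4 NZO and 4 B6 mice was measured on 1-colour Agilent arrays, grouped by the sample titles. The authors deposited intensity values, per the file headers from Feature Extraction 11.0.1.1 (the submitters' processing notes name 9.1), and a table whose values equal the raw median intensity of 59305 of 59305 spots (tolerance 0.01), with no scaling between arrays. The processed signal, background-subtracted, was taken as log2 minus the 75th percentile of each array, without control and outlier spots (96 to 137 per array), and spots of a probe were averaged. Precision is limited by the 4 arrays of each strain. Of several probes of a gene, the one with the highest mean level among those above background on at least 1 array stood for it. Probes were matched to RefSeq by first (27600) or other (85) accession, symbol (3350) or synonym (312), and 24282 kept the file's name. For Tnnt3, limma used the second probe, since only it passed the filter.

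The strains were compared without a block by limma (version 3.58.1, in R 4.3.3). It was tested on simulated data. Other steps ran in Python 3.11.15. The thresholds are those of the methods. The members and lists were chosen with earlier results of these data known. Named were all members, other muscle genes past the adjusted thresholds (up to 10) or with the 8 largest excesses, the 10 largest excesses outside the lists, and neighbours past the thresholds or nearest. The alternatives were normexp (offset 50), quantile normalization, the deposited table, no filter, the mean over probes, slide, scan day or mouse number in the fit, the methods' t-test with Welch correction, other limits, and leaving out arrays. A separate culture or litter is not named in the labels. The p-values set the strain difference against the spread between arrays of a strain, which mixes mouse, slide and scan day. Only 1 slide held both strains, so strain and slide are partly confounded.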

Additional observations from a re-analysis of the deposited data

Results flagged for a closer look

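In 15 of 68 groups of 4 arrays (34 members in 2 strains), 1 array stood apart from the other 3, its gap to the nearest array divided by the range of the group being above Dixon's critical value. Chance flags about 1 in 20 groups, but these genes and arrays were chosen with their values known and many signals were at background, so the count is a description and not a test. NZO 007 was the array apart in 14 of the 15 and B6 010 in 1. The ratio for NZO 007 was 0.935 in Myh1, 0.865 in Mylpf, 0.914 in Mybpc2, 0.83 in Acta1, 0.857 in Tnnt3, 0.929 in Tnni2, 0.947 in Actn3 and 0.884 in Tcap. It was 0.908 in Ttn, 0.915 in Casq1, 0.888 in Ryr1, 0.949 in Ckm, 0.932 in Mb and 0.91 in Ampd1. B6 010 stood apart for Atp2a1, with a ratio of 0.927.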

How the results depend on the processing

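Calls of members are descriptions, since the selection had used this contrast, and Myom2 entered the test through NZO alone. Myom3 and Myom2 were higher in NZO in all 19 alternatives each. Myom3 lay between 4.95 and 5.33 with 1 array left out, and was 4.09 with normexp and 4.34 with the deposited table. Cmya5 lay between 1.04 and 1.39 with 1 array left out, and it was 0.77 with normexp and 0.78 with the deposited table. When slide entered the fit as a term, it was 0.77 and not called. Only 1 slide held both strains, so that fit compares NZO 003 with B6 010 and B6 015 alone. It repeats the difference within the shared slide and is not a separate check. Myom2 was 5.07 with normexp and 5.90 with the deposited table. The 2383 called genes were 980 with normexp and 2343 to 2635 with 1 array left out, and the methods' t-test called 2063, and 1271 after Benjamini-Hochberg adjustment. Of the 2383 calls 1060 were higher and 1323 lower, against 468 and 1139 with the deposited table, which is not scaled between arrays. Mybpc1 was not called in 6 alternatives and Neb (0.42) in 1, slide as a term. The 6 members called were 13 without NZO 007 and without both NZO 007 and B6 010, and 6 to 13 with 1 array left out. They were 12 with the replicate block, where only the arrays of mouse numbers 009 and 011 enter the difference. With slide as a term, NZO 003 alone stands for NZO, so no count is given. The 16 members of the array pattern were 6 with normexp and 7 with the deposited table, the cause of which was not tested, 18 and 12 with limits of 0.7 and 2, 15 where both arrays had to be above background, and 16 to 18 with 1 of the other arrays left out (18 without B6 015). The 2 members that followed scan day were 1 with normexp. The 6 members of the strain pattern were 4 with the deposited table (without Neb and Mybpc1), 5 with normexp (without Mybpc1), 5 with the mean over probes (without Neb), and 6 to 8 with 1 array left out. The 8, without NZO 007 and also without both arrays, were 5 higher, Mybpc1 no longer among them, and 3 lower (Cacna1s, Myh4 and Tcap). The 9 other muscle genes called were 1 with normexp, 3 with the deposited table and 5 to 12 with 1 array left out (5 without NZO 009). The 5 neighbours were 8 with the mean over probes and 5 to 6 with 1 array left out.

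Mouse numbers 009 and 011 occur in both strains but name different mice, and the deviations of NZO 009 and B6 009 correlated at -0.29 and those of NZO 011 and B6 011 at -0.03 over 24453 probes. The numbers are therefore not a pairing. With the replicate block, only the arrays of mouse numbers 009 and 011 enter the difference, and all other arrays drop out of it. In that fit Cmya5 was 1.49 and Myom3 5.07, both called, and 7 members were lower and 5 higher. By limma 0 other muscle genes (12 before adjustment) and 1 neighbour of Myom3 and Cmya5 passed after adjustment. Without the block 6 and 4 passed. The blocked values rest on those arrays alone, so they do not show how the result of all arrays depends on the block. Signal over background limits the dim probes: the median raw intensity was 1.71 to 2.01 times its local background.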
